A study of Mus musculus with 4 samples.

Results

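Of 20780 protein-coding genes on mouse chromosomes 1 to 19, 14 were close to silent by the TPM measure below in wild-type pachytene spermatocytes. The same 14 were detected at a low level in pachytene spermatocytes homozygous for a knock-in at Ddx4. They are Fam198b, Spdef, Asprv1, Angptl2, Meox1, Nacad, Serpina3n, Trh, Cacna2d3, Chrna9, Apol7c, Fetub, Ada and Sel1l3. A gene was taken when it had at most 0.5 TPM (transcript abundance corrected for length and scaled to the same total in every library) in both wild-type libraries, and at least 1.5 TPM and 20 expected counts in both knock-in libraries. Zbtb16, Lin28a, Ifih1 and Nr4a3 were left out by name, and none of them met the thresholds. By expected counts Fam198b was not close to silent, with 28 and 29 in the wild-type libraries, against 62 and 51 in the knock-in libraries. The genes were chosen on the difference between the genotypes, so that difference is described here and is not tested.

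The 2 knock-in libraries (KK) came from cells with the genotype DDX4 homozygous knock-in, and the 2 wild-type libraries (WT) from WT cells. Both kinds of cells were pachytene spermatocytes, enriched by centrifugal elutriation from mouse testes that had been digested in 2 steps, and total RNA was sequenced without strand information, so reads of overlapping genes on opposite strands cannot be told apart. The inserted sequence, the strain, the age and the number of mice are not given in the labels. The labels do not say that libraries of a genotype came from separate mice, so p-values measure no more than how far these libraries spread, which may be technical variation.

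Pachytene spermatocytes are germ cells in the prophase of the first meiotic division, when homologous chromosomes are paired and recombine. They transcribe an unusually wide range of genes, and RNA helicase Ddx4, the mouse homolog of Drosophila vasa, is a core protein of the granules in which germ cells gather RNA. The 14 genes are known mainly from other tissues: a hypothalamic hormone precursor, secreted and serum proteins, a goblet cell and a somite transcription factor, a skin protease, and channel and receptor subunits of nerve and sensory cells. By its title, the series asks what germ granules do for RNA homeostasis and germline development.

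The libraries held 19438570 and 17970207 expected counts in KK, and 18156099 and 19246124 in WT. Ddx4 itself stood at 54.4 and 52.5 TPM in the KK libraries, against 265 and 273 TPM in the WT libraries. The genotypes differed widely: by edgeR's quasi-likelihood test with Benjamini-Hochberg adjustment at 0.05, 3648 of 16571 tested genes were higher in KK (22.0%) and 3589 lower (21.7%). Among the called genes 50.4% were higher in KK under TMM scaling factors and 64.2% when libraries were scaled by size alone. All 12 pachytene markers were detected in every library, with summed levels of 16076 and 15908 TPM in KK and 17005 and 16850 TPM in WT. Without Ldhc, the most abundant, they summed to 6328 and 6448 TPM in KK and 7316 and 7315 TPM in WT. By edgeR 1 of the 12 was higher in KK and 7 were lower. Markers of other cells moved with genotype too, among them 11 of 15 tested Leydig markers, which were higher in KK (10 to 11 without 1 library, 10 by DESeq2 and 6 by limma).

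Low levels in WT were common among autosomal genes. Of the 20780 genes, 8219 had at most 0.5 TPM in both WT libraries, and 7364 of those also had at most 0.5 TPM in both KK libraries. At least 1.5 TPM in both KK libraries was reached by 19 of the 8219, of which 5 were left out for fewer than 20 counts. With the genotypes exchanged the rule found 0 genes, and 1 gene without the count minimum. On the X chromosome 7 of 929 protein-coding genes met it and on the Y chromosome 2 of 175. All of these X genes but Xlr5a belong by name to the Btbd35f family, and reads may be split among similar copies with uncertainty.

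The 14 genes lie on 10 chromosomes, and none is next to another. Positions are given on GRCm38, with gene models of GENCODE M21. Their mean level in KK ran from 1.62 to 4.99 TPM with a median of 2.94 TPM, and in WT from 0.13 to 0.43 TPM with a median of 0.34 TPM. Together they took 862 and 825 counts in the KK libraries, against 116 and 139 counts in the WT libraries. Every gene had some counts in both WT libraries, from 3 to 29 per library, against 23 to 148 per library in KK. All 14 were tested by edgeR and all 14 were called higher in KK, beside 22.0% of all genes tested, and nothing is read from this or the next shares, since the rule used the same contrast. Of the 14, 7 were under the filter's cutoff of 0.535 CPM (counts scaled to library size) in both WT libraries and entered the test through the KK libraries. Both KK libraries lay above both WT libraries in TPM in all 14 by construction, as in 34.6% of the genes tested. The lowest KK value was at least 3 times the highest WT value in CPM in 11 of the 14. The exceptions were Fam198b, Nacad and Chrna9. Among all genes tested the share was 1.83%, with CPM there also scaled by TMM factors. In bulk RNA, fewer cells of a type and less RNA per cell cannot be told apart.

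**Figure D1:**
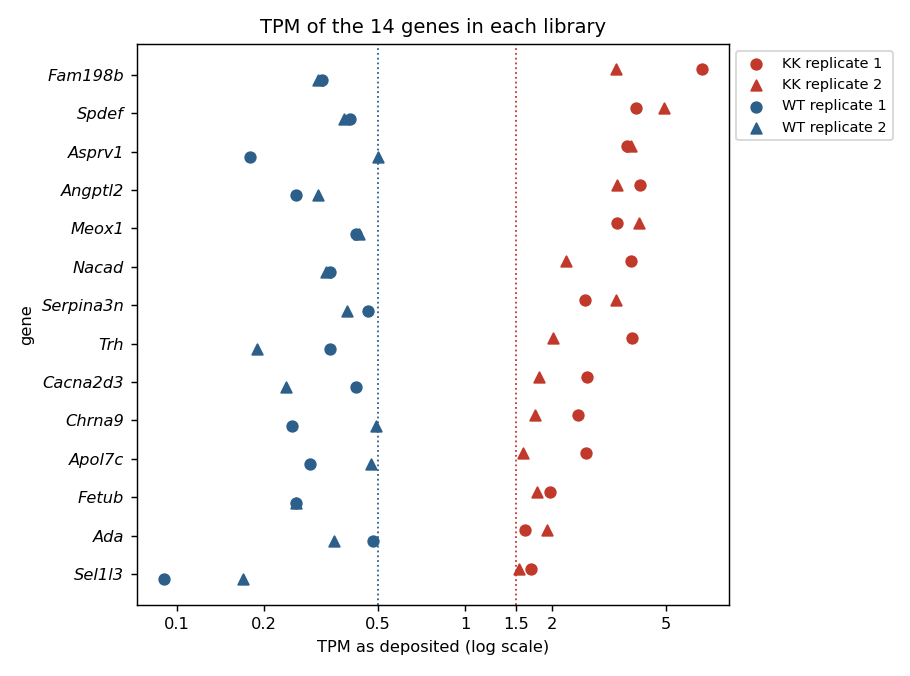
Deposited TPM (log axis) of the 14 genes, one row per gene, with red symbols for the 2 KK libraries and blue symbols for the 2 WT libraries; dotted lines mark the rule's limits of 1.5 TPM for KK and 0.5 TPM for WT. The KK values run from 1.54 to 6.63 TPM and the WT values from 0.09 to 0.50 TPM, and the 2 KK libraries of Fam198b, Trh, Nacad and Apol7c are the farthest apart.

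The stretches just upstream of the transcription starts are shown for the 7 genes with the highest KK level that have a RefSeq promoter entry, to let their base composition and motifs be compared. Each holds the 100 bases before the RefSeq start on GRCm38.p6, written 5′ to 3′ on the gene's strand. Capitals mark matches on either strand to the TATA box (TATAAA), the CCAAT box (CCAAT), the GC box (GGGCGG), the cyclic AMP response element (TGACGTCA) or TGACCTCA, the site known in TRH promoters as Site 4. The last was added after the Trh sequence had been seen.
Fam198b: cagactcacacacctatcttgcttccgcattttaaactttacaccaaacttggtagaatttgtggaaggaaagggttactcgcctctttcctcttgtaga
Spdef: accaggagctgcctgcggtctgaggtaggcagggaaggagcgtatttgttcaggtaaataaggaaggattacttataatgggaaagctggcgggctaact
Asprv1: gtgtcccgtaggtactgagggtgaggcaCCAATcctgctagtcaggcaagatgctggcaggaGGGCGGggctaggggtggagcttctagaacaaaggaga
Angptl2: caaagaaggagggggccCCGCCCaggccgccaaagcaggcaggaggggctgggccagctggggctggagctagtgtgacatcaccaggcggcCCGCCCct
Nacad: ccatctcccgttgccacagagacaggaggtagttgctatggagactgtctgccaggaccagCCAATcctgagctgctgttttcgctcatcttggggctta
Serpina3n: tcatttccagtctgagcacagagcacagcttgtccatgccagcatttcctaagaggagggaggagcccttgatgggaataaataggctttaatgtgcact
Trh: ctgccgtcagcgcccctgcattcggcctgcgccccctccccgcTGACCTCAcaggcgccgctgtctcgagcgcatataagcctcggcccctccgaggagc
These lie at chr3:79885830-79885929 (plus strand, listed by RefSeq as Gask1b) for Fam198b, chr17:27728952-27729051 (minus) for Spdef, chr6:86628074-86628173 (plus) for Asprv1, chr2:33215861-33215960 (plus) for Angptl2, chr11:6606055-6606154 (minus) for Nacad, chr12:104406608-104406707 (plus) for Serpina3n and chr6:92244651-92244750 (minus) for Trh. The RefSeq start of Fam198b is 1397 bases inside the GENCODE gene model, at the first base of Fam198b-201. That isoform held no counts in KK replicate 1, where all counts of the gene fell on Fam198b-202 and Fam198b-204, whose annotated starts lie upstream, within 0.064 kb of the gene's 5′ end; it held 46.2 counts in KK replicate 2 and all WT counts.

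Promoter entries were matched for 12 of the 14 genes, with 13 promoters in all since Fetub has a pair. The comparison used the full windows of 300 bases, 250 of them before the start, and 31396 autosomal promoters. The 13 promoters had a median of 6 CpG sites, against 7 in all promoters, and ranged from 0 in Apol7c to 28 in Trh and 41 in Cacna2d3. No promoter motif searched was shared by the 13. The GC box was in 7 of the 13, against 36.0% of all promoters, the CCAAT box in 4 (37.3%), and the TATA box in 1, Fetub (13.6%). This Fetub promoter lies at the start of Fetub-204, an isoform with 0 counts in every library. The KK counts of Fetub fell on isoforms that start 1.90 and 2.12 kb from the gene's 5′ end. The E-box (CANNTG) was in 10 (72.2%) and the ETS core (GGAAG) in 9 (71.3%). The AP-1 site (TGANTCA) was in 1, Fam198b (7.84%). The complete cyclic AMP response element was in 0 of the 13 (1.83%), its shorter core TGACG, which is also part of the complete element, in 4 (21.0%), and TGACCTCA in 1, Trh (2.21%), starting 57 bases before the start. All motifs were searched on both strands, and a match is a description of letters.

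Among genes for secreted proteins, Trh encodes the precursor of thyrotropin-releasing hormone, the hypothalamic tripeptide that drives pituitary thyrotropin secretion. Trh had 3.80 and 2.02 TPM in the KK libraries, against 0.34 and 0.19 TPM in the WT libraries. Behind these levels were 64 and 31 counts in KK and 5 and 3 counts in WT. The KK libraries differed 1.88-fold from each other in TPM, and the lower of them was 5.94-fold above the higher WT library. The gene (ENSMUSG00000005892, chr6:92242061-92244650, minus strand) has 1 isoform with counts, the coding one, and its promoter is printed above. Of 7 genes of the hormone's processing and reception, 4 could be tested and 2 were higher. Pcsk2, a convertase that cleaves prohormones, had 0.98 and 0.93 TPM in KK and 0.34 and 0.29 TPM in WT (2.98-fold, edgeR adjusted p of 1.84e-04). Cpe, the carboxypeptidase that trims the cut ends, had 12.1 and 10.1 TPM in KK and 6.84 and 6.60 TPM in WT (1.66-fold, edgeR adjusted p of 1.68e-05). Pam, which amidates peptides, and Trhde, which degrades the hormone, were not called (edgeR adjusted p of 0.292 and 0.461). Neither receptor gene, Trhr or Trhr2, had any signal in the 4 libraries.

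Angptl2 encodes an angiopoietin-like secreted glycoprotein known from adipose tissue and inflammation. It had 4.05 and 3.38 TPM in KK, against 0.26 and 0.31 TPM in WT, from 126 and 148 counts in KK and 11 and 12 counts in WT. It had the most KK counts of the 14, and its KK libraries came in opposite order in TPM and in counts. In KK replicate 1 the short coding isoform Angptl2-204 held 10.2 counts and in KK replicate 2 it held none. The full-length Angptl2-201 held 91.5% of the KK counts, but 60.0% of the transcripts in KK replicate 1 and 91.6% in KK replicate 2. The gene (ENSMUSG00000004105, chr2:33216069-33247717, plus strand) lies inside Ralgps1, which runs on the opposite strand, shares no exon base with it and stood at 46.2 and 47.6 TPM in KK and 50.4 and 48.3 TPM in WT. Of 8 related genes 2 could be tested, and both were higher in KK: Angptl4, a lipoprotein lipase inhibitor gene (2.68-fold, edgeR adjusted p of 0.00976), and Itgb1, an integrin subunit gene (1.55-fold, edgeR adjusted p of 0.0020). Neither was called by DESeq2 (adjusted p of 0.0944 and 0.0554).

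Serpina3n encodes a secreted inhibitor of serine proteases, a mouse counterpart of human alpha-1-antichymotrypsin. It had 2.61 and 3.34 TPM in KK, against 0.46 and 0.39 TPM in WT, from 72 and 84 counts in KK and 11 and 10 counts in WT. All counts fell on its coding isoform (ENSMUSG00000021091, chr12:104406729-104414329, plus strand). It belongs to a cluster of similar copies, among which reads may be split with uncertainty. Of 10 other Serpina3 genes 3 could be tested and 2 were higher. Serpina3g had 11.7 and 14.9 TPM in KK and 3.20 and 1.60 TPM in WT (6.42-fold, edgeR adjusted p of 8.12e-12). Serpina3c had 3.07 and 2.49 TPM in KK and 1.03 and 0.86 TPM in WT (2.94-fold, edgeR adjusted p of 5.08e-05), and Serpina3a was not called (edgeR adjusted p of 0.983). The adjacent Serpina3m had no signal in any library.

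Fetub encodes fetuin-B, a serum protein from liver that inhibits the egg protease ovastacin and so keeps the zona pellucida open to sperm. It had 1.98 and 1.78 TPM in KK, against 0.26 TPM in each WT library, from 29 and 23 counts in KK and 4 and 3 counts in WT, the lowest counts among the 14. The gene (ENSMUSG00000022871) lies at chr16:22918334-22939778 on the plus strand. In KK the counts fell on the coding isoforms Fetub-201 (12.9 and 8.41) and Fetub-202 (16.1 and 14.6). In WT they fell on Fetub-203 in replicate 1 and on Fetub-202 in replicate 2, too few counts to compare isoforms between genotypes. The neighbouring Ahsg, which encodes fetuin-A, stood at 0.12 and 0.21 TPM in KK and 0.07 TPM in each WT library. Astl, the gene of ovastacin, had no signal in any library.

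Spdef and Meox1 encode transcription factors. Spdef is an ETS-domain factor needed for goblet cell and Paneth cell maturation. It had 3.91 and 4.91 TPM in KK, against 0.40 and 0.38 TPM in WT, from 45 and 52 counts in KK and 4 counts in each WT library. The lower KK library was 9.78-fold above the higher WT library in TPM. The gene (ENSMUSG00000024215) lies at chr17:27714352-27728955 on the minus strand. The counts lay almost wholly outside the coding isoforms. The isoform Spdef-203, annotated as a retained intron and confined to the last 3.27 kb of the gene (chr17:27714451-27717719, minus strand), held 98.6% of the KK counts and all WT counts. Coding isoforms held 1.36 counts in KK replicate 2 and 0 in the other libraries, so almost no counts were assigned to isoforms that start at the promoter printed above. Of 5 epithelial genes listed with Spdef, Foxa3 could be tested and was not called (edgeR adjusted p of 0.96). Elf5 and Agr2 had no signal in any library, and Ehf and Elf3 had at most 0.32 TPM in any library.

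Meox1 is a homeobox factor of the somites. It had 3.38 and 4.03 TPM in KK, against 0.42 and 0.43 TPM in WT, from 102 and 111 counts in KK and 11 and 12 counts in WT. The replicates of each genotype were close to each other. All counts fell on its only annotated isoform, which is coding (ENSMUSG00000001493, chr11:101877510-101894374, minus strand). Its paralog Meox2 had 0.06 TPM in KK replicate 1 and 0 TPM in the other libraries. Of 5 somite genes listed with it, Pax1 could be tested and was not called (edgeR adjusted p of 0.996).

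Chrna9 and Cacna2d3 encode subunits of cell surface channels. Chrna9 is the alpha-9 subunit of the nicotinic acetylcholine receptor that answers efferent input to cochlear hair cells. It had 2.47 and 1.75 TPM in KK, against 0.25 and 0.49 TPM in WT, from 41 and 28 counts in KK and 4 and 11 counts in WT. WT replicate 2 was close to the 0.5 TPM limit. The edgeR fold of 4.28 for Chrna9 was 2.99 without WT replicate 1 and 7.64 without WT replicate 2. The gene (ENSMUSG00000029205) lies at chr5:65934921-65977326 on the plus strand. Its coding isoform Chrna9-201 (chr5:65967124-65977326, plus strand) held 90.3% of the KK counts. Chrna10, the usual partner subunit, had at most 0.16 TPM in any library. Of 8 other alpha subunits 3 could be tested: Chrna2 (4.40-fold, edgeR adjusted p of 0.0034) and Chrna7 (3.87-fold, edgeR adjusted p of 0.00283) were higher in KK, and Chrna5 was not called (edgeR adjusted p of 0.444). Chrna2 had 0.51 and 0.41 TPM in KK and 0.13 and 0.06 TPM in WT, and Chrna7 had 0.90 and 1.30 TPM in KK and 0.41 and 0.16 TPM in WT. Without WT replicate 2 neither passed (edgeR adjusted p of 0.0847 and 0.0721), nor did Chrna2 without KK replicate 1 (0.0526) or Chrna7 without KK replicate 2 (0.0576).

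Cacna2d3 is an alpha-2-delta subunit, which helps voltage-gated calcium channels reach the cell surface. It had 2.65 and 1.81 TPM in KK, against 0.42 and 0.24 TPM in WT, from 34 and 30 counts in KK and 6 counts in each WT library. It is the longest of the 14 genes, at 817 kb (ENSMUSG00000021991, chr14:28904943-29721864, minus strand), and 30.2% of its KK counts fell on coding isoforms. A non-stop decay isoform held 30.5% of the KK counts and a retained-intron isoform held 28.4%. Of 7 calcium channel subunit genes 4 could be tested. Cacnb1 was higher (1.19-fold, edgeR adjusted p of 0.0112) and Cacnb4 lower (1.64-fold, edgeR adjusted p of 0.0275), and both lost their call with DESeq2 (adjusted p of 0.0885 and 0.182), Cacnb4 also with scaling by library size alone (edgeR adjusted p of 0.0525). Cacna2d1 and Cacna2d2 were not called (edgeR adjusted p of 0.584 and 0.432).

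Asprv1, Ada and Fam198b encode enzymes or kinase-like proteins. Asprv1 is a retroviral-like aspartic protease of the upper epidermis that processes profilaggrin. It had 3.66 and 3.78 TPM in KK, against 0.18 and 0.50 TPM in WT, from 71 and 67 counts in KK and 3 and 9 counts in WT. The KK libraries were close to each other and the WT libraries were not. The edgeR fold of 10.7 for Asprv1 was 7.32 without WT replicate 1 and 20.2 without WT replicate 2. It has 1 isoform (ENSMUSG00000033508, chr6:86628164-86629710, plus strand), and its promoter above carries a CCAAT box 72 bases and a GC box 38 bases before the start. The other epidermal genes were not detected or not called: Flg, the profilaggrin gene, and Casp14 had no signal, Lor had at most 0.39 TPM in any library, and Krt10 was not called (edgeR adjusted p of 0.513).

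Ada is adenosine deaminase, which turns adenosine into inosine in purine salvage. It had 1.62 and 1.92 TPM in KK, against 0.48 and 0.35 TPM in WT, from 35 and 38 counts in KK and 9 and 7 counts in WT. This was the smallest TPM ratio among the 14, at 4.27. All counts fell on the coding isoform (ENSMUSG00000017697, chr2:163726584-163750239, minus strand). Of 9 purine and adenosine genes tested with it, 2 were higher, 1 lower and 6 not called. Hprt, a salvage enzyme gene on the X chromosome, had 3.91 and 4.50 TPM in KK and 1.79 and 2.25 TPM in WT (2.07-fold, edgeR adjusted p of 0.00553). Pnp, which acts directly after Ada, had 3.40 and 3.38 TPM in KK and 2.62 and 1.80 TPM in WT (1.68-fold, edgeR adjusted p of 0.0211). The Ada-like gene Adal had 7.15 and 5.51 TPM in KK and 8.10 and 8.54 TPM in WT (1.36-fold lower, edgeR adjusted p of 0.00588). None of these 3 was called by DESeq2 (adjusted p of 0.0758 for Hprt, 0.181 for Pnp and 0.0965 for Adal).

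Fam198b, also named Gask1b, encodes a Golgi-associated kinase-like protein. It had the highest mean deposited level in KK, from 6.63 and 3.35 TPM, against 0.32 and 0.31 TPM in WT. In KK replicate 2 alone Spdef was the highest, at 4.91 TPM. The gene (ENSMUSG00000027955) lies at chr3:79884533-79946280 on the plus strand. Its counts were much closer, at 62 and 51 in KK and 28 and 29 in WT. The ratio was 15.8 in TPM, the largest of the 14, and 1.98 in counts per total (95% counting interval 1.43 to 2.78), the smallest of the 14. The isoform Fam198b-204, with an effective length of 121 bases in KK replicate 1, held 14.6% of the KK counts but 92.5% and 84.9% of the gene's transcripts in the KK libraries, and it had no WT counts. The gene's mean effective length was 823 bases in KK and 6308 bases in WT. With 1 effective length per gene in all libraries Fam198b stood at 1.10 and 1.00 TPM in KK, against 0.57 and 0.55 TPM in WT, and did not meet the rule. Of the related kinase genes Fam20a (1.22-fold, edgeR adjusted p of 0.00343) and Fam20b (1.33-fold, edgeR adjusted p of 8.22e-09) were lower in KK.

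The remaining 3 genes have less settled roles. Nacad shares a domain with the alpha subunit of the nascent polypeptide-associated complex, which binds new chains at the ribosome. It had 3.76 and 2.25 TPM in KK, against 0.34 and 0.33 TPM in WT, from 30 and 29 counts in KK and 8 and 11 counts in WT. The gene (ENSMUSG00000041073) lies at chr11:6597823-6606053 on the minus strand. As for Fam198b, the TPM ratio (8.97) lay above the ratio of counts per total (3.10, 95% counting interval 1.82 to 5.51). The nonsense-mediated decay isoform Nacad-202, with an effective length of 204 bases in KK replicate 1, held 28.5% of the KK counts but 93.1% and 84.2% of the transcripts in the KK libraries. With 1 effective length per gene Nacad stood at 1.42 and 1.51 TPM in KK, against 0.43 and 0.56 TPM in WT. The genes of the complex itself, Naca, Btf3 and Btf3l4, were abundant and not called (edgeR adjusted p of 0.318, 0.678 and 0.824), though Btf3 passed as higher when libraries were scaled by size alone (edgeR adjusted p of 0.0231).

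Apol7c belongs to the apolipoprotein L family. It had 2.62 and 1.59 TPM in KK, against 0.29 and 0.47 TPM in WT, from 72 and 40 counts in KK and 7 and 12 counts in WT. The counts fell on its coding isoform (ENSMUSG00000044309, chr15:77524852-77533316, minus strand), and similar copies nearby make their assignment uncertain. Of 12 other family members 11 could not be tested and had at most 0.17 TPM in every library. Apol7b, at 2.40 and 2.57 TPM in KK and 1.69 and 2.71 TPM in WT, was higher in counts (1.83-fold, edgeR adjusted p of 0.0128), while its TPM values overlapped between the genotypes; DESeq2 did not call it (adjusted p of 0.132).

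Sel1l3 encodes a membrane protein with Sel1 repeats. It had 1.70 and 1.54 TPM in KK, against 0.09 and 0.17 TPM in WT, from 79 and 93 counts in KK and 5 and 10 counts in WT. Its WT level was the lowest of the 14. The gene (ENSMUSG00000029189) lies at chr5:53107083-53213927 on the minus strand. The coding isoform Sel1l3-201 (chr5:53107083-53213452, minus strand) held 98.2% of the KK counts. Sel1l, of the endoplasmic reticulum degradation machinery, and its partner Syvn1 were lower in KK (1.14-fold and 1.38-fold, edgeR adjusted p of 0.00454 and 1.70e-07), and the Sel1l call was lost with library size scaling (edgeR adjusted p of 0.101). Sel1l2 was not called (edgeR adjusted p of 0.409).

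**Figure D2:**
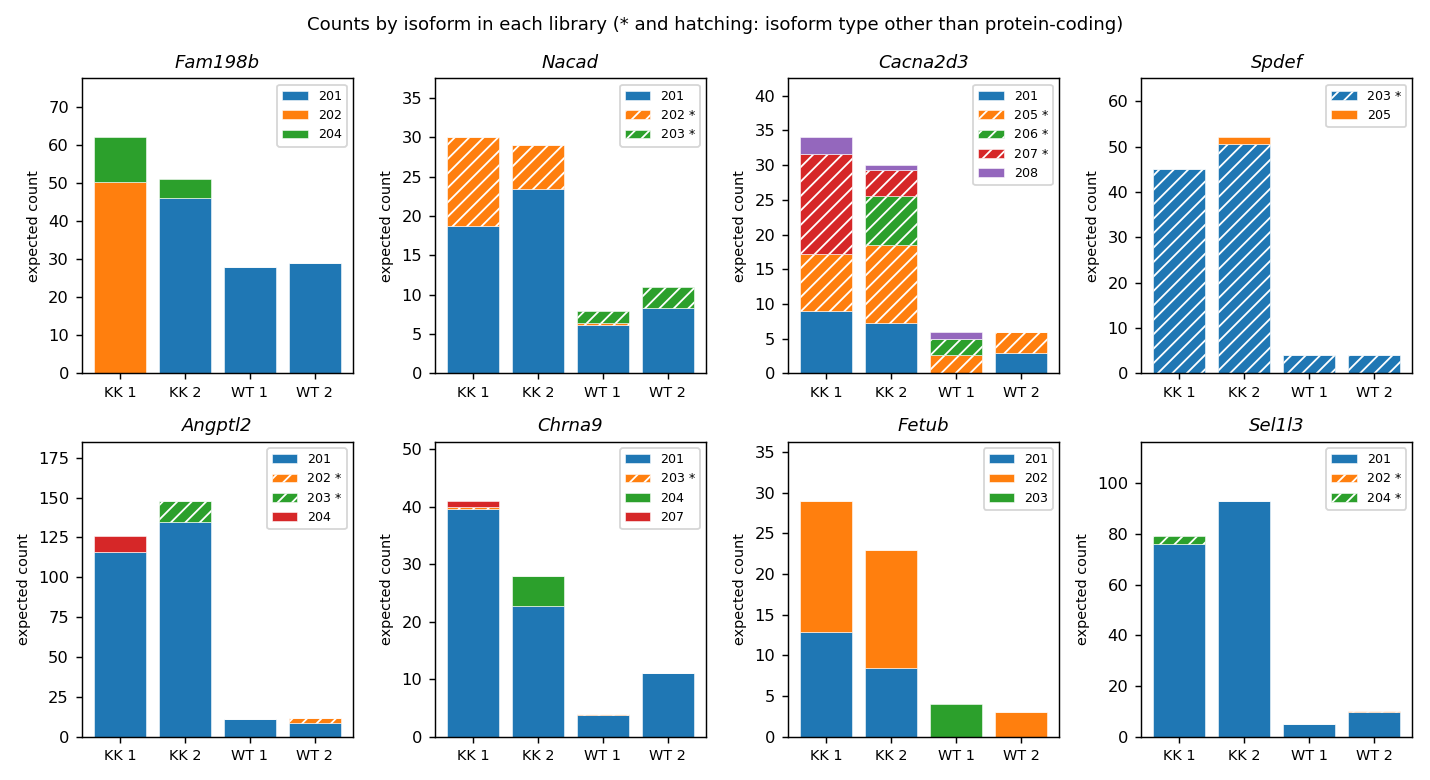
Expected counts by annotated isoform in the 2 KK and 2 WT libraries for the 8 genes with counts on several isoforms; colours are isoform numbers and hatching marks isoforms that are not annotated as protein-coding. Spdef is hatched almost throughout, while the KK bars of Angptl2, Chrna9 and Sel1l3 are mostly isoform 201.

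Over the 14 genes, the TPM ratio and the count ratio differed most in a pair of genes. The TPM ratio exceeded the count ratio by more than 1.5 times in 2 of the 14, Fam198b and Nacad, and by at most that in the other 12. Their effective length in KK was under 50% of that in WT, as in 0.432% of the autosomal protein-coding genes tested. Of the 14 genes 6 had counts on 1 isoform, and 8 had all their KK counts on coding isoforms. In 2, Spdef and Cacna2d3, less than 50% of the KK counts fell on coding isoforms. With 1 effective length per gene 15 genes met the rule, 10 of them among the 14. Chrna9 and Sel1l3 left together with Fam198b and Nacad, Chrna9 with 0.62 TPM in WT replicate 2 and Sel1l3 with 1.30 TPM in KK replicate 1. As deposited, in KK replicate 1 Sel1l3-201 had 1.15 TPM and Sel1l3-204 had 0.56 TPM from 3.06 counts. In KK replicate 2 Chrna9-201 had 1.03 TPM and Chrna9-204 had 0.72 TPM from 5.28 counts.

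**Figure D3:**
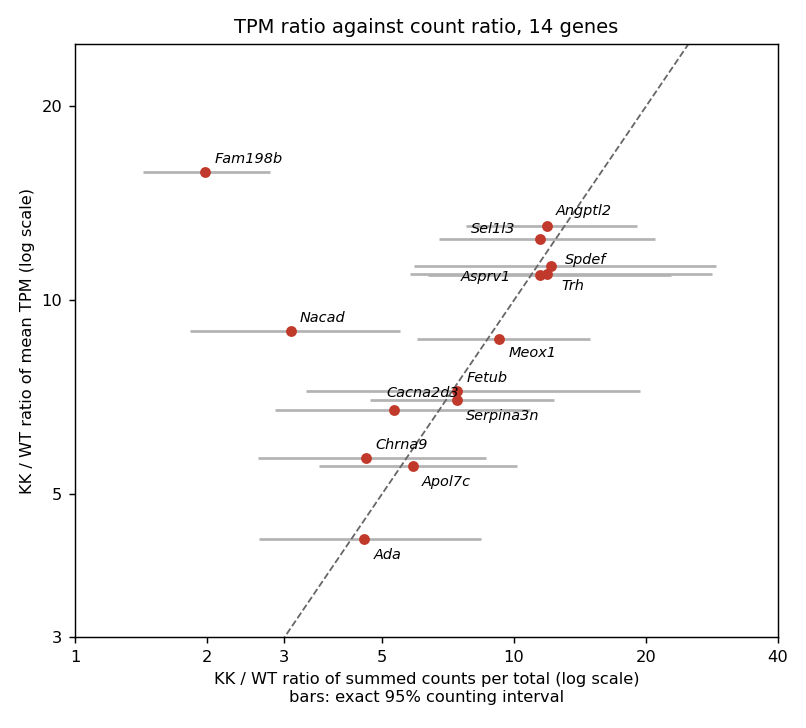
Ratio of mean TPM (KK over WT, vertical, log axis) against the ratio of summed counts per total count (horizontal, log axis) for the 14 genes, with exact 95% counting intervals as bars and a dashed line where the ratios are equal. Fam198b (15.8 in TPM, 1.98 in counts) and Nacad (8.97 and 3.10) lie far above the line and the other 12 near it.

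**Figure D4:**
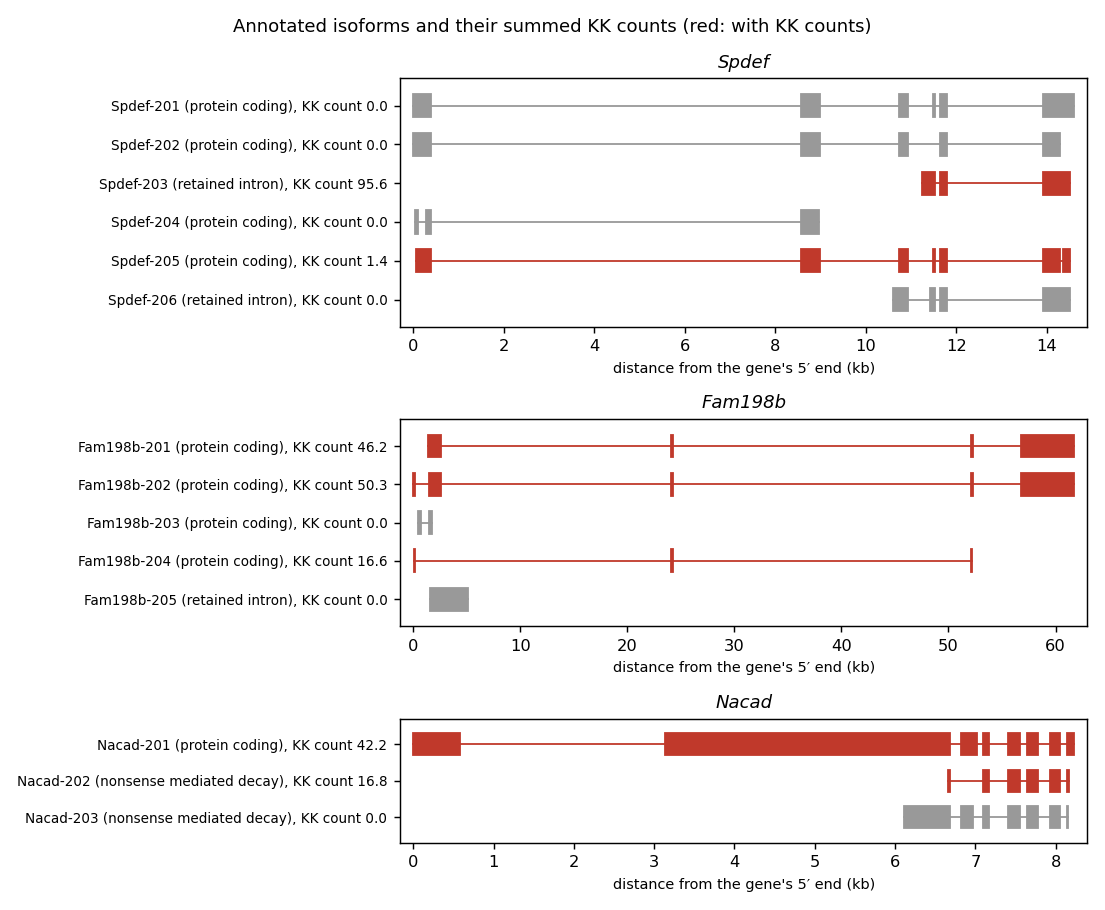
Exon maps of the annotated isoforms of Spdef, Fam198b and Nacad by distance from the gene's 5′ end in kb, with each isoform's summed expected count in the 2 KK libraries at the left and isoforms with KK counts in red. The KK counts of Spdef lie on an isoform of the last 3.27 kb (95.6 counts), and the short isoforms Fam198b-204 and Nacad-202 hold 16.6 and 16.8 counts.

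The genes nearest to the 14 on the chromosome were called in both directions. Of the 28 nearest protein-coding genes, 1 on each side, 18 could be tested: 3 were higher in KK, 7 lower and 8 not called, beside 22.0% higher and 21.7% lower among all genes tested. Tmem144, 31.8 kb from Fam198b, had 42.5 and 39.0 TPM in KK and 21.7 and 17.6 TPM in WT (2.24-fold, edgeR adjusted p of 2.19e-10), a larger fold than the 1.86 of Fam198b in the same fit. 1700025B11Rik, 24.9 kb from Apol7c, had 71.6 and 74.0 TPM in KK and 30.5 and 28.6 TPM in WT (2.47-fold, edgeR adjusted p of 1.21e-08). Prickle2, a planar polarity gene 126 kb from Trh, had 0.86 and 0.74 TPM in KK and 0.26 and 0.28 TPM in WT (2.05-fold, edgeR adjusted p of 0.00797), and was not called by DESeq2 (adjusted p of 0.0971) or without WT replicate 1 (edgeR adjusted p of 0.0556). Pkig, which encodes a protein kinase A inhibitor and ends 0.425 kb from the end of Ada on the opposite strand, had 355 and 350 TPM in KK and 353 and 364 TPM in WT and was not called (edgeR adjusted p of 0.934). The 7 lower neighbours were Pacsin1, D17Wsu92e, Pcbp1, Garnl3, Tbrg4, Rbsn and Slc34a2, each by 1.21-fold to 1.38-fold; DESeq2 did not call Rbsn (adjusted p of 0.0585). By limma on log2(TPM + 1), Prickle2, Garnl3 and Rbsn were not called, with adjusted p of 0.0956, 0.277 and 0.247. None of the neighbours is among the 14. The only exon bases shared with another annotated gene were 711 of Fam198b, with the antisense gene Gm36569, which is listed at 0 in every library.

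**Figure D5:**
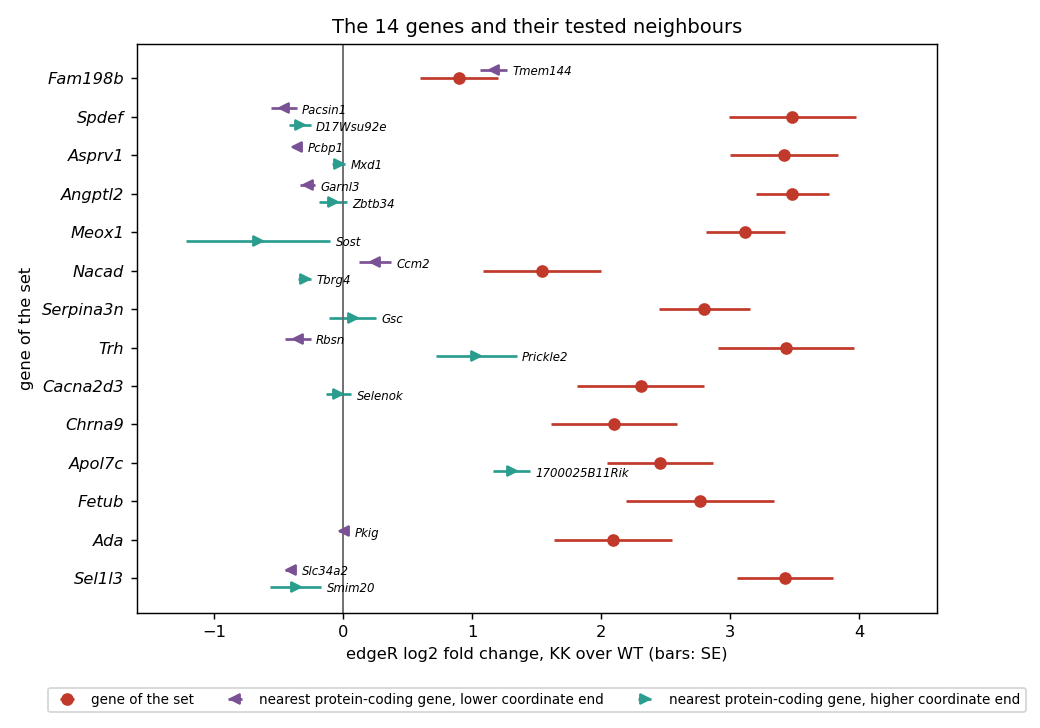
edgeR log2 fold change (KK over WT, bars are SE, 2 libraries per genotype) of the 14 genes in red and of their 18 tested neighbours as triangles. The 14 lie between 0.90 and 3.48, and the neighbours between -0.66 and 1.30, with Tmem144, Prickle2 and 1700025B11Rik on the higher side.

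Genes related to the 14 by family or pathway were mostly below the test's filter or not called. Of 93 such genes 37 could be tested, and 12 were higher in KK, 6 lower and 19 not called. The shares among all genes tested were 22.0% higher and 21.7% lower. Of these related genes DESeq2 called 5 higher and 4 lower, and limma on log2(TPM + 1) or log2(TPM + 0.1) called 4 higher and 2 lower. The calls also made by limma were those of Serpina3g, Serpina3c, Cpe and Hprt as higher and of Fam20b and Syvn1 as lower. Chrna2 was not tested by limma, and the remaining calls were lost, with limma adjusted p on log2(TPM + 1) from 0.0703 for Pcsk2 to 0.806 for Sel1l. The largest fold among the 37 was that of Serpina3g. Leaving out 1 library ended several calls by edgeR: those of Angptl4 (adjusted p of 0.326), Cacnb4 (0.080), Apol7b (0.0684) and Pnp (0.0727) without KK replicate 1, that of Cacnb1 without KK replicate 2 (0.0838), and that of Angptl4 without WT replicate 1 (0.0522). The edgeR log2 fold change of Angptl4 was 1.43 with all libraries and 0.79 without KK replicate 1. Those of Chrna2 and Chrna7 were 2.14 and 1.95 with all libraries and 2.74 and 2.78 without WT replicate 1. Without WT replicate 2 the calls of Cacnb1 (0.112), Cacnb4 (0.154), Apol7b (0.0505), Adal (0.0658) and Pnp (0.161) were lost.

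None of the 14 is in a marker list of testis cells, and the part of these cells in the levels of the 14 genes was not tested. Leydig cell markers summed to 2547 and 2628 TPM in KK and 746 and 782 TPM in WT, and without Insl3, the most abundant, to 233 and 229 TPM in KK and 135 and 139 TPM in WT. Peritubular and stromal markers summed to 9.60 and 11.8 TPM in KK and 5.59 and 4.57 TPM in WT, and macrophage markers to 43.5 and 48.3 TPM in KK and 32.9 and 36.7 TPM in WT. Endothelial markers summed to 5.30 and 6.07 TPM in KK and 3.65 and 5.03 TPM in WT. Spermatogonial markers summed to 83.4 and 91.8 TPM in KK and 64.7 and 114 TPM in WT, overlapping between genotypes. Of these Uchl1 was the most abundant, at 32.0 and 33.0 TPM in KK and 17.9 and 66.2 TPM in WT. In CPM scaled by TMM factors Uchl1 did not overlap, at 17.0 and 17.4 in KK and 9.31 and 10.7 in WT. Without Uchl1 the spermatogonial markers summed to 51.4 and 58.8 TPM in KK and 46.8 and 47.6 TPM in WT, and did not overlap. Sertoli markers summed to 344 and 347 TPM in KK and 240 and 254 TPM in WT, but without Ptgds, the most abundant, to 153 and 159 TPM in KK and 167 and 181 TPM in WT. Round spermatid markers summed to 17937 and 17390 TPM in KK and 19600 and 19478 TPM in WT. Epithelial markers, of tissues in which Spdef is known, summed to 31.7 and 38.0 TPM in KK and 40.9 and 39.1 TPM in WT. The tested ones, Epcam and Krt8, had edgeR adjusted p of 0.341 and 0.109. Erythroid markers summed to 11.2 and 11.4 TPM in KK and 7.54 and 7.23 TPM in WT. Without Hbb-bs, the most abundant, they summed to 3.38 and 5.11 TPM in KK and 6.36 and 5.25 TPM in WT. Of the erythroid markers edgeR called 0 of 2 tested, and limma called 1 of 4 as higher. Lymphocyte markers summed to 11.3 and 12.8 TPM in KK and 13.3 and 12.8 TPM in WT. Without Cd3d, the most abundant, they summed to 1.42 and 0.78 TPM in KK and 1.36 and 1.47 TPM in WT. The lymphocyte markers Cd3g, Cd8a and Cd79a were at 0 in every library.

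Single markers were called by edgeR as follows, beside 22.0% higher and 21.7% lower among all genes tested. Besides the Leydig markers, 4 of 10 tested macrophage, 2 of 5 endothelial, 6 of 9 peritubular and stromal and 8 of 14 spermatogonial markers were higher in KK, and 1 spermatogonial marker was lower. Of 13 Sertoli markers 2 were higher and 6 lower, and of 12 round spermatid markers 6 were higher and 5 lower. Several of these counts depended on a library or on the tool. The macrophage count was 1 without WT replicate 1, 2 without any other single library, and 0 by DESeq2 and by limma on either TPM scale. Of the peritubular and stromal markers 3 were higher without KK replicate 2, 3 by DESeq2 and 1 by limma. Of the Sertoli markers 3 were lower without KK replicate 1, 3 by DESeq2 and 0 by limma, and 1 was higher by DESeq2, by limma, without KK replicate 1 and without WT replicate 1. Limma called 2 spermatogonial and 0 endothelial markers higher, and 3 round spermatid markers lower, as did edgeR with library size scaling. Without KK replicate 1, 2 endothelial markers were lower, and without WT replicate 1, 1 was.

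Several genes lay close to a limit of the rule. Asprv1 (0.50 TPM in WT replicate 2), Chrna9 (0.49) and Ada (0.48 in WT replicate 1) were just inside the WT limit, and Pappa (0.52), Mpnd (0.54) and Pak6 (0.54) were just outside it. Pappa, the gene of a protease of insulin-like growth factor binding proteins, had 2.06 and 2.33 TPM in KK, against 0.46 and 0.52 TPM in WT, from 348 and 360 counts in KK and 68 and 81 counts in WT, more than any of the 14. At the KK limit of 1.5 TPM, Sel1l3 (1.54), Apol7c (1.59) and Ada (1.62) were inside, and Evpl (1.38), Npas1 (1.31) and Slc25a47 (1.30) were outside. Below the count minimum, the nonagouti gene a had 25 and 17 counts in KK and 2 counts in each WT library, Tmem255b had 15 counts in each KK library, and Gm10377 had 16.3 and 13.8 counts in KK and 0 in WT.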

How the data were processed

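Pachytene spermatocytes were enriched by elutriation and total RNA was sequenced in 2 KK and 2 WT libraries, per the labels. The submitters' processing notes name Bowtie, mm10 and GRCm38. Which quantifier and which annotation release were used is not given in the sources used here. Expected counts, TPM and effective lengths of 55364 genes and of their isoforms were deposited by the authors, per the file headers. The isoform percent deposited by the authors is the share of a gene's transcripts held by an isoform. Names, coordinates and biotypes came from GENCODE M21 on GRCm38, which holds 55104 of the identifiers. The kit does not mark strand, so reads of overlapping genes cannot be told apart.

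The 14 genes, their related genes and the cell marker lists were chosen with earlier results of these data known. All members are named. A further related gene was left out for a reason unrelated to its values and is not reported here. Expected counts were rounded and fitted over all genes with edgeR 4.0.16 in R 4.3.3 (TMM factors, the default filter, a quasi-likelihood fit on genotype, Benjamini-Hochberg at 0.05). The procedure was tried on simulated data with far fewer changed genes than were called here, each at a mean of at least 1 CPM. Weaker changed genes and a change as wide as in these data were not covered. Ratios of counts per total carry exact 95% intervals, which cover counting error only. The total expected count per library was 17970207 to 19438570. Numbers 1 and 2 recur in both genotypes, and nothing in the labels pairs them. Alternatives were RLE and library size scaling, DESeq2 1.42.0, limma 3.58.1 on log2(TPM + 1) and log2(TPM + 0.1), other filters, a replicate block, other limits of the rule and each library left out. 1 effective length per gene (the mean of the 4 libraries, with TPM recomputed) and a fold on CPM were added after the data had been seen. Promoters are RefSeq's on GRCm38.p6. Figures were drawn with matplotlib 3.10.9.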

Additional observations from a re-analysis of the deposited data

How the results depend on the processing

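The rule's limits decided how many genes it took. From 14 genes the count fell to 1, Sel1l3, with a WT limit of 0.25 TPM and was 84 with 1 TPM. It was 33 with a KK minimum of 1 TPM, 5 with 3 TPM and 6 with a minimum of 50 counts. It was 17 with a minimum of 10 counts and 12 with TPM rescaled by TMM factors. Leaving out a library removes a condition of the rule, so the count could then not fall below 14. Applied without 1 library, the rule took 25 to 35 genes (32 without KK replicate 1, 28 without KK replicate 2, 25 without WT replicate 1, 35 without WT replicate 2). With 1 effective length per gene, chosen after seeing the data, it took 15.

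Of all genes tested, 3648 were higher in KK by edgeR, against 2035 by DESeq2, 2007 by limma on log2(TPM + 1) and 1934 on log2(TPM + 0.1), and 2916 to 3095 without 1 library. The same counts for the 14 genes were 12 by DESeq2, where Fam198b and Nacad had adjusted p of 0.152 and 0.0909, and 12 to 14 without 1 library. Without KK replicate 1 and without WT replicate 2 Fam198b was not called, and without WT replicate 1 neither Fam198b nor Nacad was. With a mean of at least 1 CPM Fetub was not tested. With all libraries, edgeR tested 16571 genes, DESeq2 26828 and limma 16971, so these counts are shares of different totals. Nothing is read from the counts of the 14 genes, since the rule used the same contrast. Where 1 library of a genotype was left, it was assumed to vary like the others. With a replicate block 3675 genes and all 14 were higher; same-numbered libraries did not deviate together (Pearson's r across genes of -0.058 between the KK and the WT difference).

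Among the neighbours and related genes, Zbtb34, next to Angptl2, turned direction: its log2 fold change was -0.08 by edgeR (adjusted p of 0.587) and 0.64 by limma on log2(TPM + 0.1) (adjusted p of 0.0494). At 3 to 29 counts per WT library, folds of single genes were loosely bounded.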

Other observations

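With 1 effective length per gene, 5 genes outside the 14 met the rule; they are named after their values were seen. Stat6, a transcription factor of interleukin-4 signalling, stood on this scale at 3.32 and 2.11 TPM in KK, against 0.41 and 0.31 TPM in WT. Tnfaip8 stood at 2.13 and 1.97 TPM in KK, against 0.39 and 0.44 TPM in WT. Pramef12, of the germline PRAME family, stood at 1.57 and 1.68 TPM in KK, against 0.36 and 0.25 TPM in WT. The zinc finger gene Zscan5b stood at 1.74 and 1.79 TPM in KK, against 0.50 and 0.23 TPM in WT. Pak6, a p21-activated kinase gene, stood at 1.68 and 2.03 TPM in KK, against 0.49 and 0.30 TPM in WT. In all 5 both KK libraries lay above both WT libraries, which the rule requires.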
